A study of Mus musculus with 12 samples.

Results

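The pull-down and input libraries labelled Cre+ are described here, chosen as the 3 pull-down and 3 input count columns of the Cre+ table, 6 of the 12 libraries of the series. Of the 9112 genes that the table lists, the 8947 with a mean FPKM (fragments per kilobase of transcript and 1000000 mapped) above 1 were tested. The study cultured dorsal root ganglion (DRG) neurons of RiboTag mice, in which Cre recombinase switches on a haemagglutinin (HA) tag on the ribosomal protein Rpl22. Ribosomes that carry the tag were pulled down with an HA antibody, and their RNA was set beside the input, RNA from the 10% of the same lysate that had been kept back. Both fractions came from male mice of the genotype Rpl22HA/HA Runx3-Cre+, aged 3 to 6 months by the labels and younger by the methods. Cultures labelled Rpl22HA/HA Runx3-Cre- hold the same tagged allele without Cre and served as the control, with 3 pull-downs and 3 inputs of their own. Each sample pooled the neurons of 5 mice, from all ganglia, after a Percoll cushion and 24 h in serum-containing medium. Runx3 drives Cre in proprioceptive neurons, which are a minority of the cells cultured, and a tag switched on at any earlier time of development stays on. In bulk RNA of this kind, fewer cells of a type and less RNA per cell cannot be told apart.

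A ribosome pull-down samples mRNA that is bound by tagged ribosomes, so a transcript is high in it when tagged cells hold the transcript and ribosomes load it. Proprioceptors are large neurons that sense muscle stretch, with thick axons, and they depend on a membrane skeleton of ankyrin and spectrin, on microtubules for long-range transport, and on voltage-gated channels for fast firing. A pull-down also carries RNA that sticks to the beads or the antibody, which is why cultures without Cre are pulled down beside it.

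Counts on listed genes ranged from 8886308 to 11457315 in the pull-downs and from 9957913 to 13941113 in the inputs. Values below are normalized counts, that is counts per 1000000 after trimmed-mean (TMM) scaling. The replicate numbers are those of the deposited columns and only tell libraries of a group apart here, because the sources do not state that equal numbers mark the same lysate. Pull-down 1 and input 1 stood apart from the other libraries of their groups. Pull-down 1 had a standard deviation of 1.85 across genes in its log2 ratio to the mean of the inputs, against 1.08 and 1.39 in pull-downs 2 and 3. Input 1 held more RNA of the cytosolic ribosomal protein genes, with a summed level of 4304 normalized counts against 1809.5 and 1791 in inputs 2 and 3. The medians of the lists that follow are therefore given for each pull-down too, and for some lists without these libraries. Where no such median is given, it may have moved as well.

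The label was checked on the genes that define it. Runx3, the driver gene (chr4:135120645-135177990), had 22.7, 2.07 and 11.1 normalized counts in the pull-downs and 4.27, 2.39 and 5.55 in the inputs, a log2 fold change of 1.55 (SE 0.87, FDR 0.309) where SE is the standard error. Its pull-down values overlapped the inputs and were led by pull-down 1. Pvalb, the calcium buffer by which proprioceptors are usually named, is not in the table of the libraries labelled Cre+, whereas the Cre- pull-downs had 58.4, 58.7 and 65.1 normalized counts of it and the Cre- inputs 8.10, 7.31 and 7.62. Runx3 therefore did not separate the pull-downs labelled Cre+ from their inputs, and Pvalb has no value there, as the table keeps genes with at least 5 counts in all 6 libraries. With the Cre- label, the log2 fold changes of Runx3, Spp1 and Etv1 were 3.52, 2.68 and 2.69, against 1.55, -0.95 and 0.24 with the Cre+ label. By the test of the difference between both enrichments, given below, Spp1 and Etv1 were lower with the Cre+ label, whereas Runx3 did not pass (-1.92 (FDR 0.304)). The other 3 markers tested did not pass either, with Ntrk3 at 2.19 (Cre+) and 2.05 (Cre-), Cdh13 at 1.23 and 1.14, and Whrn at 1.67 and 3.35. By this test Spp1 and Etv1 thus go against the labels. In the libraries labelled Cre- every pull-down also lay above every input for Pvalb, Runx3, Spp1, Etv1, Ntrk3 and Whrn, but not for Cdh13. Whether the genotypes were exchanged between the labels or the tables was not tested. All directions here follow the labels as deposited, and with exchanged genotypes every value given for Cre+ would be one of Cre- and each difference between them would change its sign. Rpl22, the tagged gene, had 43.4, 26.2 and 35.5 normalized counts in the pull-downs and 98.0, 44.4 and 51.7 in the inputs. Its log2 fold change was -0.88 (FDR 0.294), so that the tag's own transcript was not enriched. All 19 pan-neuronal markers on the list used below are in the table, as are 12 of 21 glial, 9 of 12 endothelial, 8 of 11 fibroblast and 2 of 16 macrophage markers.

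Pull-down and input differed in many genes. Among the enriched genes with the smallest p were Map1b, Aff1 and Ank2, and among the depleted ones Anxa5, Prkar1a and Ctsl. With edgeR's quasi-likelihood test, 422 genes (4.72% of those tested) were enriched and 196 (2.19%) depleted, at a Benjamini-Hochberg adjusted p (FDR) below 0.1 and at least a 2-fold change. The 3 pull-downs all exceeded the 3 inputs in 1389 genes (15.5%) and were all under them in 1603 (17.9%). DESeq2 called 1103 and 568 genes. Of the genes called, 68.3% were enriched after TMM scaling, 48.3% after upper-quartile scaling (249 enriched, 266 depleted) and 21.5% with library size alone (192 and 699), which moved the median log2 fold change of all genes from 0.076 to -0.12 and -0.36. Directions given below are relative to TMM scaling. The 39 gene lists described below hold 97 of the enriched and 70 of the depleted genes, out of 1042 genes tested in them. These lists were chosen with earlier results of these data known, so their counts of called members in part describe that choice.

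The 3 pull-downs spread widely over the genes tested. The test calls genes with a large change and little spread, so that the values of called genes given here describe that choice. All pull-downs were at least 2-fold above the mean of the inputs for 298 of the 422 enriched genes and at least 2-fold below it for 157 of the 196 depleted genes. Groups did not overlap in 417 of the enriched genes and in all 196 depleted ones. Over all genes tested, the 3 pull-downs lay on the same side of the mean input for 49.1%, and 956 genes (10.7%) were at least 2-fold up in a pull-down and at least 2-fold down in another. The median standard deviation of the log2 level was 0.823 among the pull-downs and 0.331 among the inputs. It was 0.503 among the pull-downs for enriched genes and 0.483 for depleted genes.

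In several lists DESeq2 called many more members than edgeR's quasi-likelihood test, with 39 depleted genes of oxidative phosphorylation against 10, 20 cytosolic ribosomal proteins against 5, 19 enriched cadherins against 5 and 37 chromatin regulators against 23. The number of calls rested on single libraries. Without pull-down 1, 803 genes were enriched and 540 depleted, and these include 392 of the 422 and 186 of the 196. Without pull-down 2 the counts were 654 and 354, and without pull-down 3 they were 320 and 116. Without input 2 there were 59 and 15, and 17 of the 39 lists held any of them, with at most 4 in a list. Only 7 genes stayed enriched without input 1, namely Aff1, Ank2, Apc, Dst, Map1a, Map1b and Zfhx3, and 4 without input 3, namely Aff1, Ank2, Ccdc88a and Map1b. No gene was called depleted without input 1 or without input 3 by edgeR's quasi-likelihood test, where 387 and 534 genes were lower at an unadjusted p below 0.05. Aff1, Ank2 and Map1b were the 3 genes called in all 6 of these fits. Wherever a list is said below to hold called members, none was called without input 1 or without input 3, unless such members are named.

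**Figure D1:**
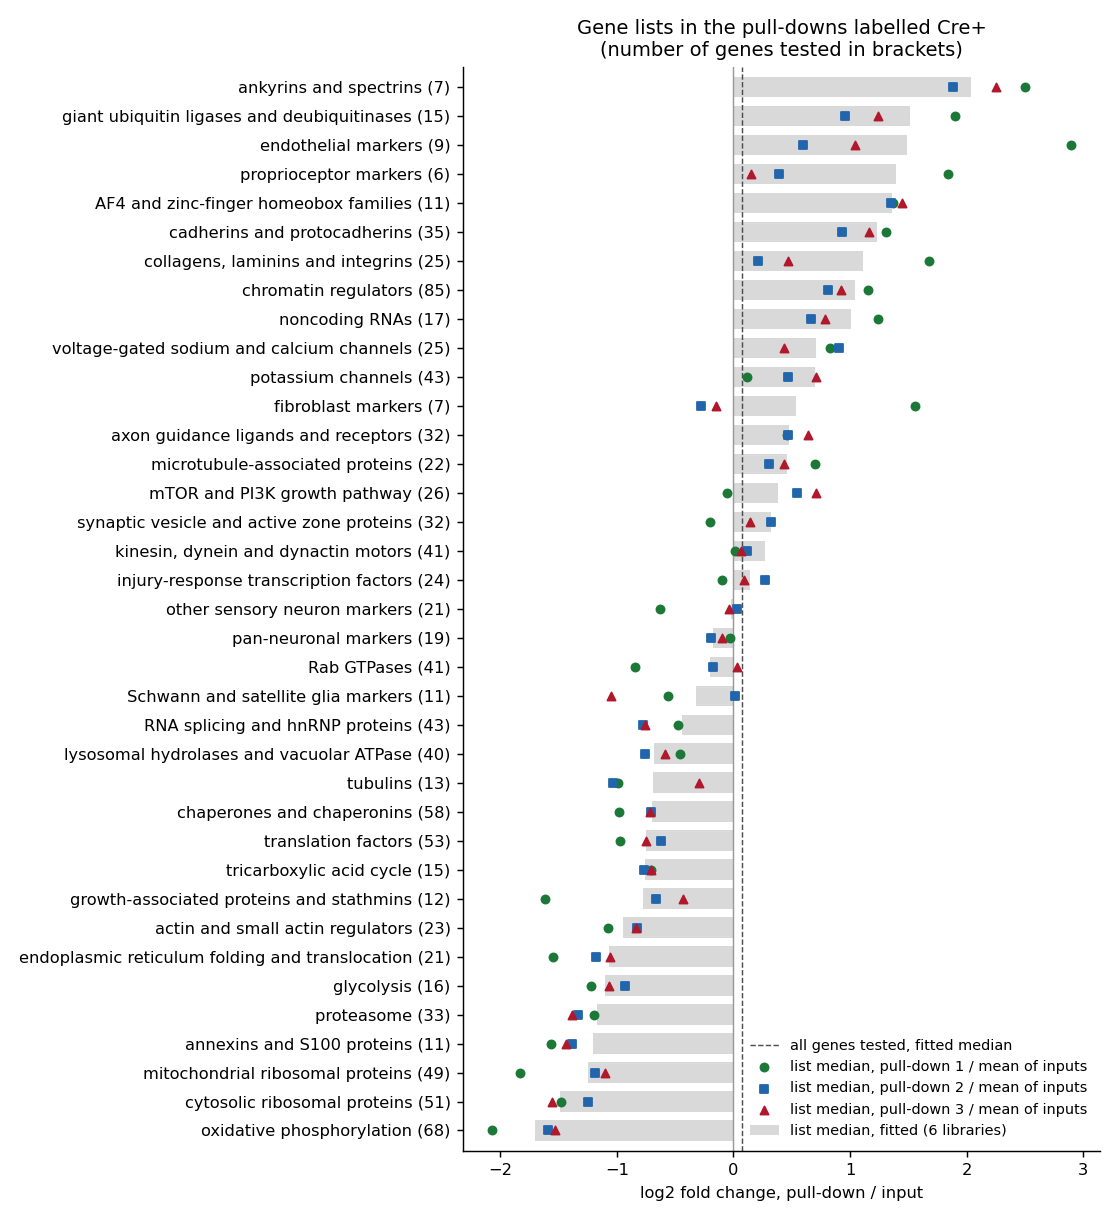
Median log2 fold change of pull-down over input for 37 gene lists with at least 6 genes tested in the libraries labelled Cre+. Bars give the median of the fitted values, coloured points give the median ratio of each pull-down to the mean of the 3 inputs, and the dashed line marks the median of all genes tested. The 3 pull-downs lay close together for the AF4 and zinc-finger homeobox families and for the tricarboxylic acid cycle, whereas pull-down 1 stood apart for endothelial and fibroblast markers.

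Transcript length, which the choice of libraries did not use, ran through the whole comparison. Genes were divided into 10 bins of like size by the length of their annotated mature transcript with the longest coding sequence. For genes without a coding sequence the longest transcript was taken. The median log2 fold change rose from -0.95 in the shortest bin (up to 1439 bases) to 1.10 in the longest (from 7077 bases), and it rose from each bin to the next. Each pull-down showed the trend, from -1.25, -1.03 and -0.996 in the shortest bin to 1.23, 0.90 and 1.02 in the longest. In the longest bin 27.8% of genes were enriched and 0.225% depleted, and in the shortest 0.561% were enriched and 8.98% depleted. Enriched genes had a median transcript length of 7759.5 bases, depleted genes 1605 and the remaining genes 3316. Coding lengths followed the same order, with medians of 4734, 744 and 1503 bases. GC content did not, as the median log2 fold change lay between 0.063 and 0.086 in all 5 bins of GC content.

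The libraries labelled Cre- showed a shallower trend, from -0.43 in the shortest bin to 0.46 in the longest. Across genes, the log2 fold change correlated with log2 transcript length with Pearson's r of 0.51 (Cre+) and 0.376 (Cre-), as a description over 8901 and 8786 genes, which are not independent replicates. After the trend with transcript length was removed from each library, edgeR's quasi-likelihood test called 0 genes enriched and 0 depleted, with a smallest FDR of 0.125. In that fit 1398 genes had an unadjusted p below 0.05, of which 1000 were higher and 398 lower in the pull-down, and DESeq2 called 513 enriched and 163 depleted. The median of a list is therefore given below both as measured and with the length trend removed, and whether the trend arose in the cells or in the preparation was not tested.

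A few called genes went against the trend, and they are named here after their values were seen. The bin of each rests on the single annotated transcript chosen for it, and whether the cells hold that transcript was not tested. In the shortest bin, the 5 enriched genes were Tmem178b, Gm13749, Trappc3l, 1700001K19Rik and Purg, with log2 fold changes of 1.75, 3.62, 1.39, 3.62 and 2.81. Trappc3l, a member of a complex of vesicle traffic, had 83.6, 78.5 and 86.6 normalized counts in the pull-downs and 31.8, 29.7 and 33.5 in the inputs, whereas pull-down 1 led Purg with 398 normalized counts against 53.6 and 50.2 in pull-downs 2 and 3. In the longest bin, the 2 depleted genes were Timm17a, a part of the mitochondrial protein import channel, and Bcat1, a branched-chain amino acid transaminase, with log2 fold changes of -2.52 and -2.02.

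**Figure D2:**
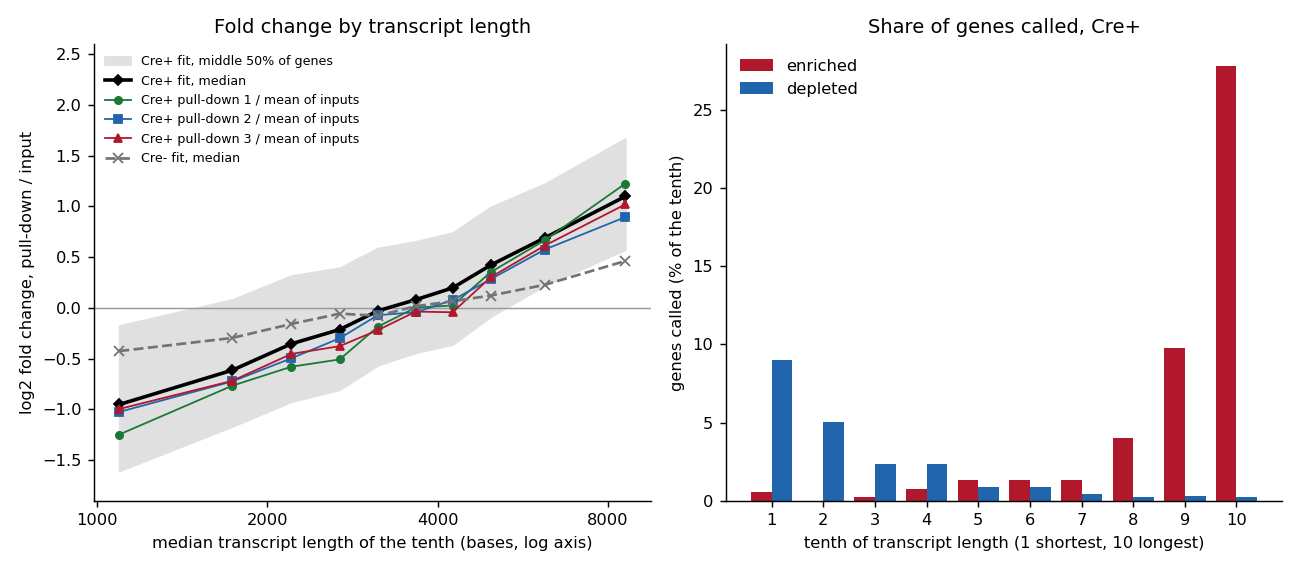
Left, median log2 fold change of pull-down over input in 10 bins of transcript length (log axis, bases), for the fit, for each pull-down labelled Cre+ and for the libraries labelled Cre-. Right, share of genes called enriched or depleted in each bin. The median rises from -0.95 to 1.10 with the Cre+ label and from -0.43 to 0.46 with the Cre- label, and 27.8% of the longest bin is enriched.

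Ankyrins and spectrins, the membrane skeleton that anchors channels and adhesion proteins along the axon, had the highest median of all lists. Of 7 members tested, 5 were enriched and 0 depleted, with a median log2 fold change of 2.03 against 0.076 over all genes, and the medians in the 3 pull-downs were 2.497, 1.88 and 2.25. Ank2 (chr3:126921607-127500347), the ankyrin of the axon shaft, had 8003, 14245 and 10701 normalized counts in the pull-downs and 931, 1739 and 1759.7 in the inputs. Its lowest pull-down was more than 4-fold above its highest input, and its log2 fold change was 2.89 (SE 0.33, FDR 0.0123). Sptan1, the alpha spectrin, had 4289.9, 1956 and 8225 normalized counts in the pull-downs and 401, 609 and 614 in the inputs, with a log2 fold change of 3.16 (SE 0.48, FDR 0.026). Sptbn1, a beta spectrin, changed by 2.58 (SE 0.40, FDR 0.026) and Ank1 by 1.64 (SE 0.31, FDR 0.0371). The pull-downs of Sptan1 and Sptbn1 spread widely, pull-down 2 being lowest in both. After removal of the length trend the list's median was 1.32, below endothelial and proprioceptor markers and above all other lists. Ank2 was the member still called without input 1 or without input 3.

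Microtubule-associated proteins, which bundle and stabilise the tracks of axonal transport, had their called genes in 1 direction. Of 22 tested, 6 were enriched and 0 depleted, the median was 0.46, and the pull-downs gave 0.70, 0.31 and 0.43. The median was 0.022 with library size alone and 0.27 with upper-quartile scaling, with 4 genes enriched in each. Map1b (chr13:99421464-99516602), a major protein of growing axons, had 84313, 144426 and 121279 normalized counts in the pull-downs and 12508, 19567 and 20343 in the inputs. It made up 6.63%, 13.3% and 10.5% of all counts in the pull-downs against 1.44%, 2.32% and 2.37% in the inputs, a log2 fold change of 2.74 (SE 0.27, FDR 0.00991). When this gene and the pre-rRNA transcript Rn45s were left out of the fit and of the library sizes, 504 genes were enriched and 197 depleted. Its relative Map1a had 6885, 8311 and 6865 normalized counts in the pull-downs and 1817, 1949 and 2049 in the inputs, with little spread on either side and a log2 fold change of 1.92 (SE 0.21, FDR 0.0119). Dst and Macf1, giant linkers of actin, microtubules and intermediate filaments, changed by 2.31 (SE 0.35, FDR 0.026) and 2.87 (SE 0.47, FDR 0.0307). With the length trend removed the list's median was 0.38. Without input 1 Map1b, Map1a and Dst were called, and without input 3 only Map1b.

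The motors that move on these tracks had called genes in both directions. Of 41 kinesin, dynein and dynactin genes, 4 were enriched and 2 depleted, where 4.72% and 2.19% of all genes tested were. The median of 0.27 was 0.13 without pull-down 3 and turned to -0.17 with library size alone. It was 0.19 with the length trend removed, and the pull-downs gave 0.014, 0.12 and 0.061. Kif1b and Kif1a, which carry synaptic vesicle precursors and mitochondria towards axon ends, changed by 1.63 (SE 0.27, FDR 0.034) and 1.43 (SE 0.25, FDR 0.0358). Kif1a had 6977, 4425 and 5817 normalized counts in the pull-downs and 1697, 2545 and 2159 in the inputs. Dync1h1, the heavy chain of the retrograde motor dynein, changed by 2.36 (SE 0.45, FDR 0.0406), and pull-down 1 led it with 5061, 2013 and 1718 normalized counts in the 3 pull-downs. Kif21a changed by 1.45 (SE 0.38, FDR 0.0781). The dynein light chain Dynlrb1 and the dynactin subunit Dctn3, small parts of the same machinery, fell by contrast. Dynlrb1 changed by -1.61 (SE 0.38, FDR 0.0626) and Dctn3 by -2.44 (SE 0.62, FDR 0.0729), and for both input 1 was more than 2-fold above inputs 2 and 3.

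Tubulins, the subunits of the microtubules themselves, had a negative median and 1 called gene. Of 13 tested, 0 were enriched and 1 was depleted, where 4.72% and 2.19% of all genes tested were. The median was -0.69, and 8 had every pull-down below every input, as did 17.9% of all genes tested. Tubb3, the beta tubulin used to mark neurons, had 159.5, 188 and 172 normalized counts in the pull-downs and 390.3, 384 and 414 in the inputs. The groups did not overlap, and the log2 fold change was -1.19 (SE 0.24, FDR 0.0448). Tuba1a, of whose exon bases 26.2% overlap another gene, and Tubb4a had log2 fold changes of -0.92 (FDR 0.11) and -0.69 (FDR 0.281), past neither cutoff. The pull-downs gave medians of -0.99, -1.03 and -0.30, and the list's median was -0.17 with the length trend removed.

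**Figure D3:**
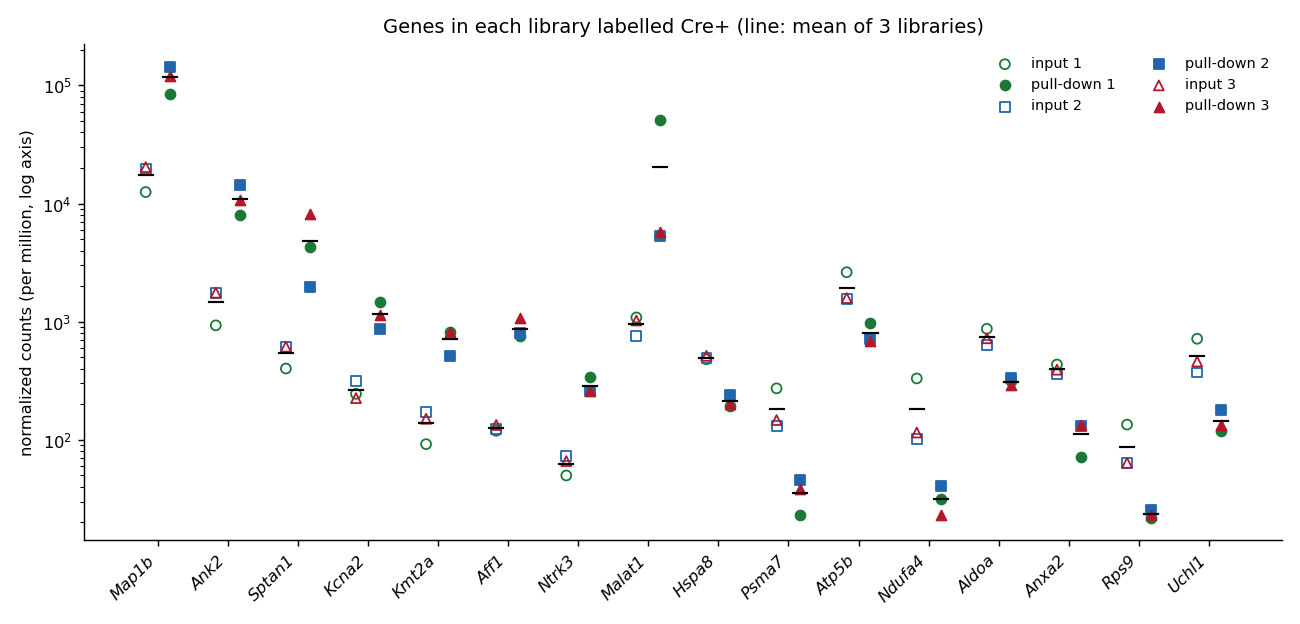
Normalized counts (per 1000000, log axis) of 16 named genes in each library labelled Cre+. Open symbols are inputs, filled symbols pull-downs, colours and shapes tell replicate numbers apart, and lines mark the mean of 3 libraries. The pull-downs lie above the inputs for the 8 genes on the left and below them for the 8 on the right, and pull-down 1 stands apart for Malat1.

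Very large enzymes of the ubiquitin system, which mark proteins for turnover or remove the mark, had several enriched genes. All 15 members tested had positive log2 fold changes, 9 were enriched and 0 depleted, and the median was 1.51 (1.90, 0.95 and 1.24 in the 3 pull-downs). Birc6, an inhibitor of apoptosis with ubiquitin-conjugating activity, had 1171, 560.2 and 1098 normalized counts in the pull-downs and 84.5, 186 and 155 in the inputs, a log2 fold change of 2.74 (SE 0.39, FDR 0.025). Mycbp2, a ligase that regulates axon growth and degeneration, changed by 2.15 (SE 0.34, FDR 0.026). Gm15800, the symbol under which the table lists the ligase Hectd4, changed by 2.07 (SE 0.32, FDR 0.026), and Usp34, a deubiquitinase, by 1.51 (SE 0.33, FDR 0.054). Pull-down 1 was the highest library in all 4. Without pull-down 1 the median was 1.10, and once the length trend was removed it was 0.041 against 0.17 over all genes.

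Chromatin regulators, the enzymes that write, erase and read marks on histones and DNA or move nucleosomes, gave the most enriched genes of any list. Of 85 tested, 23 were enriched and 0 depleted, 76 had positive log2 fold changes, and in 44 every pull-down lay above every input. Their median was 1.04, and the pull-downs gave 1.15, 0.81 and 0.93. Library size alone gave 12 enriched genes and a median of 0.56. Kmt2a, a histone H3 lysine methyltransferase, had 812, 517 and 819 normalized counts in the pull-downs and 91.9, 173 and 151 in the inputs, a log2 fold change of 2.37 (SE 0.33, FDR 0.025). Its relative Kmt2c changed by 2.37 (SE 0.35, FDR 0.0253). Tet2, which oxidises methylated cytosine, had 257, 56.4 and 174 normalized counts in the pull-downs and 12.0, 21.5 and 14.9 in the inputs, and its log2 fold change of 3.33 (SE 0.58, FDR 0.0342) was led by pull-down 1. Without input 2, 3 members of the list were called. The list's median was 0.75 without pull-down 1 and 0.36 with the length trend removed.

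The AF4 family of transcription elongation factors and the zinc-finger homeobox proteins had nearly equal medians in the 3 pull-downs, at 1.36, 1.35 and 1.44. Of 11 tested, 7 were enriched and 0 depleted, and all 11 had positive values, with a median of 1.36 and of 0.53 with the length trend removed. Aff1 (chr5:103692362-103855322), a scaffold of the complex that releases paused RNA polymerase, shared the smallest FDR of the comparison with Map1b. It had 749.8, 804 and 1066 normalized counts in the pull-downs and 119, 124 and 133 in the inputs, with little spread in either group. Its log2 fold change was 2.80 (SE 0.26, FDR 0.00991). Zfhx3, a transcription factor of differentiating neurons, had 1281, 1067 and 1129 normalized counts in the pull-downs and 291, 299 and 277 in the inputs. Its log2 fold change was 2.004 (SE 0.23, FDR 0.0123), and that of Zfhx4 1.98 (SE 0.41, FDR 0.0472). Adnp changed by 1.496 (SE 0.29, FDR 0.0427), but other genes cover 86.0% of its exon bases, and whether reads were counted by strand is not given in the sources used here. Without input 1 Aff1 and Zfhx3 were called, and without input 3 Aff1.

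Outside the lists, 4 further genes were among the 10 enriched genes with the smallest p. Ccdc88a, an actin-binding activator of G proteins and of Akt, had 603, 1535 and 968 normalized counts in the pull-downs and 81.5, 115 and 132 in the inputs, the largest change of these 10 with 3.24 (SE 0.39, FDR 0.0156). Apc, a scaffold that restrains beta-catenin and binds microtubule ends, had 5073, 3517 and 4186 normalized counts in the pull-downs and 626, 1139.7 and 1007 in the inputs, a change of 2.20 (SE 0.29, FDR 0.0229). Hivep1, a zinc-finger transcription factor, changed by 2.13 (SE 0.29, FDR 0.025), and Ankrd11, a cofactor of nuclear receptors, by 2.07 (SE 0.25, FDR 0.0173). Their transcripts are long (9376, 12811, 8753 and 7995 bases).

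Potassium channels, which set the resting potential and end the action potential, gave 6 enriched and 0 depleted genes of 43, with a median of 0.70. The pull-downs gave 0.12, 0.47 and 0.71, with pull-down 1 near the level of all genes. With library size alone the median was 0.26, and 5 of the genes were enriched. Kcna2, the channel that clusters beside the nodes of myelinated axons, had 1461, 873 and 1149 normalized counts in the pull-downs and 245, 316 and 225 in the inputs. Its partner Kcna1 had 961, 1074 and 1097 normalized counts in the pull-downs and 268, 416 and 464 in the inputs. Both pairs of groups were apart, with log2 fold changes of 2.15 (SE 0.28, FDR 0.0236) and 1.45 (SE 0.27, FDR 0.0371). Kcnc1, a channel of fast-firing neurons, changed by 1.73 (SE 0.36, FDR 0.0471). The transcripts of Kcna1 and Kcnc1 are of middle length here (4031 and 3156 bases), and with the length trend removed the list kept a median of 0.53.

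Voltage-gated sodium and calcium channels, which carry the action potential and trigger transmitter release, showed 4 enriched and 0 depleted genes of 25, with a median of 0.71 and 0.83, 0.91 and 0.43 in the pull-downs. With library size alone 2 were enriched around a median of 0.30. Scn8a, the sodium channel of the nodes, had 1718, 785 and 615 normalized counts in the pull-downs and 265, 264 and 222 in the inputs, a change of 2.05 (SE 0.38, FDR 0.0371). Scn9a, which is prominent in nociceptors, had 1372, 1069 and 1529 normalized counts in the pull-downs and 363, 649.9 and 592 in the inputs, a change of 1.31 (SE 0.29, FDR 0.054). The calcium channel pores Cacna1a and Cacna1b changed by 1.69 (SE 0.35, FDR 0.0462) and 1.16 (SE 0.33, FDR 0.0946). Freed of the length trend, the median was 0.27.

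Among proteins of the synaptic vesicle and active zone, 4 of 32 were enriched and 0 depleted, around a median of 0.32 that was 0.17 without pull-down 2 and turned to -0.12 with library size alone. The pull-downs gave -0.20, 0.32 and 0.14, so that pull-down 1 lay on the other side of 0. The giant scaffolds of the active zone led, with Pclo at 2.09 (SE 0.37, FDR 0.0342) and Bsn at 1.46 (SE 0.28, FDR 0.0401). Pclo had 2200.0, 1211 and 1084 normalized counts in the pull-downs and 232, 477 and 348 in the inputs. Unc13a, which primes vesicles, changed by 1.37 (SE 0.33, FDR 0.0654). Cplx2, a clamp on the fusion machinery, had 489, 1087 and 1860.4 normalized counts in the pull-downs and 369, 406 and 403 in the inputs and a log2 fold change of 1.54 (SE 0.42, FDR 0.0847), and its pull-downs spread almost 4-fold. Without the length trend Bsn turned to -0.094 and the list's median was 0.15.

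Cadherins and protocadherins, which join cells through calcium-dependent contacts, had 5 enriched and 0 depleted genes of 35, 31 positive values and a median of 1.23 (1.31, 0.93 and 1.16 in the pull-downs). Celsr2, a receptor of planar cell polarity, had 136, 83.6 and 86.5 normalized counts in the pull-downs and 22.9, 26.5 and 18.1 in the inputs, a change of 2.18 (SE 0.42, FDR 0.0402). The giant cadherins Fat4 and Fat3 changed by 3.31 (SE 0.64, FDR 0.0413) and 1.28 (SE 0.30, FDR 0.0609), and Fat4 was led by pull-down 1 with 267, 105 and 45.5 in the pull-downs. Pcdhac2 had 115, 116 and 113 normalized counts in the pull-downs and 45.5, 39.98 and 49.3 in the inputs. Its pull-downs were nearly equal and its log2 fold change was 1.35 (SE 0.34, FDR 0.072), but 48.6% of its exon bases are shared with other genes of its cluster. The list kept a median of 0.87 with the length trend removed, though Fat3 turned to -0.45.

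Ligands and receptors of axon guidance had 5 enriched and 0 depleted genes of 32 and a median of 0.47, with 0.46, 0.47 and 0.64 in the pull-downs. The list had no called gene and a median of 0.023 with library size alone, and 1 enriched gene and 0.28 with upper-quartile scaling. Among the 4 named members were 3 plexins, the receptors of semaphorins. Plxna1 changed by 1.57 (SE 0.38, FDR 0.0654), Plxna4 by 1.69 (SE 0.46, FDR 0.0862) and Plxna2 by 1.15 (SE 0.33, FDR 0.0952), and the ligand Sema6d by 1.63 (SE 0.44, FDR 0.0855). For Plxna2 the pull-downs had 292, 292 and 325 normalized counts against 81.7, 152 and 176, the tightest of the 4. Sema6d was led by pull-down 1, with 988, 339 and 403. The list's median with the length trend removed was 0.24.

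In the insulin, PI3K and mTOR pathway, which couples growth signals to protein synthesis, 3 of 26 genes were enriched and 0 depleted, around a median of 0.38 that turned to -0.071 with the length trend removed, to 0.18 without pull-down 3 and to -0.05 with library size alone. The pull-downs gave -0.057, 0.55 and 0.71, with pull-down 1 below 0. The receptor Igf1r had 512, 369 and 486 normalized counts in the pull-downs and 129, 202 and 166 in the inputs, a change of 1.46 (SE 0.28, FDR 0.0406). Downstream of it, the kinase Pik3ca changed by 1.29 (SE 0.36, FDR 0.0864). Transcription factors induced by nerve injury stayed near the level of all genes, with a median of 0.14. Of 24, 1 was enriched and 0 depleted. Upper-quartile scaling turned the median to -0.04 and library size alone to -0.29, with 0 enriched in each and 1 depleted with library size alone. The median was 0.0089 without pull-down 2 and 0.010 without input 3. Its pull-downs gave -0.10, 0.27 and 0.087, and with the length trend removed the median was 0.28. Klf7, a factor that supports axon growth, had 997, 1358 and 1429 normalized counts in the pull-downs and 511, 697 and 631 in the inputs, a change of 1.04 (SE 0.25, FDR 0.0654), and other genes cover 39.8% of its exon bases. Sox11, named for its counts, had a log2 fold change of 0.36 (FDR 0.581), past neither cutoff.

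Long noncoding RNAs, of which many stay in the nucleus, held the highest fold change of all lists. Of 17 tested, 5 were enriched and 0 depleted, with a median of 1.005, which was 0.51 without pull-down 3 and 1.05 with the length trend removed. The pull-downs gave medians of 1.24, 0.67 and 0.79. Scaled by library size alone, 4 were enriched and the median was 0.54. Malat1 (chr19:5795690-5802672), an abundant RNA of nuclear speckles, had 50470.2, 5345 and 5763 normalized counts in the pull-downs and 1086, 750.4 and 1023 in the inputs. All pull-downs lay above all inputs, but pull-down 1 was more than 8-fold above the other pull-downs, and the log2 fold change was 4.43 (SE 0.85, FDR 0.0401). Meg3, an imprinted noncoding RNA, had 1701, 275 and 380.3 normalized counts in the pull-downs and 58.5, 44.0 and 65.2 in the inputs, a change of 3.81 (SE 0.66, FDR 0.0342). Kcnq1ot1, an imprinted transcript antisense to Kcnq1 whose reads may be counted for either gene, changed by 6.04 (SE 1.25, FDR 0.0472) and Snhg11 by 2.86 (SE 0.70, FDR 0.0669), and pull-down 1 led both, with 677, 31.3 and 31.3 and 1004, 143 and 181 in the pull-downs. Summed over the list, the 3 pull-downs had 54953, 6359.9 and 6897 normalized counts and the inputs 1962, 1234 and 1577. Without input 2, 1 member of the list was called. In the pull-downs labelled Cre-, Malat1 had 5000, 1300 and 1210 normalized counts, where again pull-down 1 stood apart from the others.

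**Figure D4:**
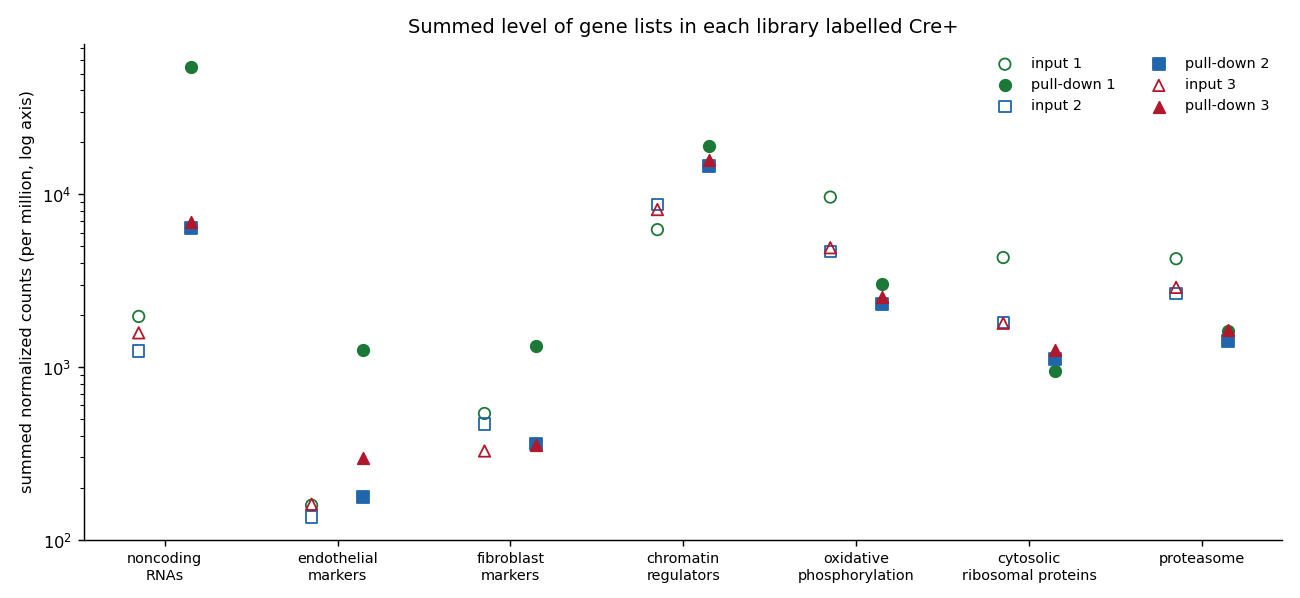
Summed normalized counts (per 1000000, log axis) over the tested genes of 7 lists in each library labelled Cre+. Open symbols are inputs and filled symbols pull-downs. Pull-down 1 stands apart for noncoding RNAs, endothelial and fibroblast markers, and input 1 for oxidative phosphorylation, cytosolic ribosomal proteins and the proteasome.

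Oxidative phosphorylation, the respiratory chain and ATP synthase of mitochondria, had the lowest median of all lists with at least 6 genes. Of 68 nuclear-encoded subunits, 10 were depleted and 0 enriched, 67 had negative log2 fold changes, and in 45 every pull-down lay below every input. The median was -1.70, and the pull-downs gave -2.07, -1.59 and -1.53. Atp5d, a subunit of the ATP synthase, had 63.7, 50.9 and 42.2 normalized counts in the pull-downs and 238, 151 and 149.9 in the inputs, a change of -1.78 (SE 0.35, FDR 0.0433). The catalytic subunit Atp5b had 984, 719 and 692 normalized counts in the pull-downs and 2622, 1549 and 1584 in the inputs, a change of -1.26 (SE 0.29, FDR 0.058). The cytochrome oxidase subunits Ndufa4 and Cox7b changed by -2.53 (SE 0.52, FDR 0.0462) and -3.03 (SE 0.68, FDR 0.0565). In each of these genes input 1 was the highest library. Over the whole list the summed level was 3029.5, 2318 and 2534 normalized counts in the pull-downs and 9636, 4665 and 4904 in the inputs, where input 1 was about 2-fold above the others. Without input 1 the median was -1.16. Without input 2, 2 members were called. The single member above its input was Ndufc2, at 0.21 (FDR 0.903). With the length trend removed the median was -0.68, still the lowest of the lists with at least 6 genes.

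Glycolysis, which turns glucose into pyruvate and lactate, had called genes in the same direction. Of 16 enzymes 5 were depleted and 0 enriched, with a median of -1.10 and -1.22, -0.93 and -1.06 in the pull-downs. The median was -0.80 without input 1 and -0.47 with the length trend removed. Aldoa, the aldolase, had 313, 331 and 289 normalized counts in the pull-downs and 870.2, 637 and 723 in the inputs, a change of -1.26 (SE 0.24, FDR 0.0401). Pkm, the pyruvate kinase, had 146, 195 and 187 normalized counts in the pull-downs and 446, 359 and 353 in the inputs, a change of -1.13 (SE 0.26, FDR 0.0609). The other 2 named members, Tpi1 and Ldhb, changed by -1.97 (SE 0.45, FDR 0.0607) and -2.08 (SE 0.51, FDR 0.0664). Several of these enzymes have processed pseudogenes, and counts of uniquely mapped reads may miss a part of their RNA. In the tricarboxylic acid cycle, which links both pathways, 0 of 15 enzymes were called by edgeR's quasi-likelihood test (8 were lower at an unadjusted p below 0.05, and DESeq2 called 3 depleted), 13 had negative values and the median was -0.76, which turned to 0.049 with the length trend removed. The pull-downs gave -0.70, -0.77 and -0.71, and without pull-down 1, 4 of the enzymes were depleted. Upper-quartile scaling gave a median of -1.001 and 1 depleted enzyme of the cycle, and library size alone -1.24 and 6. Cs, the citrate synthase that opens the cycle, and Ogdh, whose transcript is longer, had log2 fold changes of -0.76 (FDR 0.209) and 0.42 (FDR 0.389).

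Genes of the cytosolic ribosome had a negative median. Of 51 ribosomal protein genes tested, 5 were depleted and 0 enriched, 49 had negative values, and the median was -1.49 with -1.47, -1.25 and -1.55 in the pull-downs. At an unadjusted p below 0.05, 27 were lower, and DESeq2 called 20 of the 51 depleted. The 2 above their input were Rps12 and Rps7, at 0.67 (FDR 0.616) and 0.0061 (FDR 0.996). Rps9 had 21.9, 25.2 and 23.3 normalized counts in the pull-downs and 135, 63.3 and 63.8 in the inputs. Rpl32 had 27.2, 33.4 and 12.2 normalized counts in the pull-downs and 193, 73.2 and 68.4 in the inputs. In both the pull-downs lay below every input, and input 1 lay more than 2-fold above the other inputs, with log2 fold changes of -1.89 (SE 0.46, FDR 0.0666) and -2.20 (SE 0.57, FDR 0.0761). Rplp2, of the ribosomal stalk, changed by -3.002 (SE 0.73, FDR 0.0659) and Rps15 by -1.97 (SE 0.54, FDR 0.0858). Without input 1 the median of the list was -0.90, and with the length trend removed it was -0.37. Most of these genes have many processed pseudogenes, so their counts of uniquely mapped reads are uncertain.

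Transcripts of ribosomal proteins are known for a run of C and T bases at their start, through which growth signals control their loading onto ribosomes. The bases around annotated start sites were read from RefSeq promoters (GRCm38.p6), as windows of 30 bases with 15 before the start, and a run was counted as at least 6 bases in a row that are each C or T, on the transcribed strand only. Of 42 windows of the 36 ribosomal protein genes matched, 61.9% held a run, against 28.0% of the 9327 windows of all tested genes and 29.2% of all windows. The share was 26.2% for oxidative phosphorylation and 44.8% for the proteasome, lists with negative medians too, and 34.5% for the chromatin regulators, a list with a positive median. The windows of the called ribosomal protein genes with an entry are shown for that reason, with the longest run in capitals, and Rpl18 (log2 fold change -2.76) completes the 5 called.
Rplp2 (chr7:141447636-141447665, plus strand): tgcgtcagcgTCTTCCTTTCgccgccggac
Rps9 (chr7:3704026-3704055, plus strand): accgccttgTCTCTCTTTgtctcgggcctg
Rpl18 (chr7:45718056-45718085, plus strand): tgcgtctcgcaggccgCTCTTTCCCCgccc
Rps15 (chr10:80292416-80292445, plus strand): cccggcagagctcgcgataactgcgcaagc
The first 3 windows held a run and that of Rps15 did not, while all 4 genes were depleted.

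Mitochondrial ribosomal proteins, which translate the few genes of mitochondrial DNA, had a median of -1.25 over 49 genes, and -0.82 without input 1. Of these genes 1 was depleted and 0 were enriched, where 2.19% and 4.72% of all genes tested were. The pull-downs gave -1.83, -1.19 and -1.10, and the median was -0.36 with the length trend removed. The depleted member Mrpl27 had 2.77, 5.60 and 6.46 normalized counts in the pull-downs and 47.9, 18.4 and 16.2 in the inputs, a change of -2.47 (SE 0.73, FDR 0.0993). The members with the highest counts, Mrps25 and Mrpl4, had log2 fold changes of 0.93 (FDR 0.159) and -0.087 (FDR 0.941), and 58.2% of the exon bases of the first are shared with another gene. Translation factors had called genes in both directions after TMM scaling. Of 53, 2 were enriched and 5 depleted, where 4.72% and 2.19% of all genes tested were. The median was -0.75, or -0.50 without input 1 and -0.15 with the length trend removed. Upper-quartile scaling gave 0 enriched and 7 depleted, and library size alone 0 and 15 around a median of -1.21. The pull-downs gave -0.97, -0.63 and -0.75. The elongation factor Eef1a1 changed by -1.06 (SE 0.27, FDR 0.0723), the helicases Eif4a1 and Eif4a2 by -1.41 (SE 0.36, FDR 0.0738) and -1.21 (SE 0.29, FDR 0.0654), and Eif3k, a small subunit of initiation factor eIF3, by -2.68 (SE 0.73, FDR 0.0858). Above their inputs were Eif3a, the largest subunit of the same factor, at 1.09 (SE 0.29, FDR 0.0819), and Eif5b, the GTPase that joins the ribosomal subunits, at 1.79 (SE 0.45, FDR 0.072). Eif5b had 450.1, 1864 and 1011 normalized counts in the pull-downs, a 4-fold spread.

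Splicing and hnRNP proteins, which process RNA in the nucleus, gave 0 called genes of 43 by edgeR's quasi-likelihood test, where 7 were lower at an unadjusted p below 0.05. DESeq2 called 2 of them depleted, and 4 were depleted without pull-down 1. Their median was -0.44, or -0.70 without pull-down 1 and -0.034 with the length trend removed, and 33 had negative values. Upper-quartile scaling gave a median of -0.69 and 0 called genes, and library size alone -0.92 and 5 depleted. The pull-downs gave -0.48, -0.78 and -0.76. Hnrnpul2 and Hnrnpu, the members with the highest counts, had log2 fold changes of 0.19 (FDR 0.714) and -0.021 (FDR 0.97), and the sign of both flipped between scalings.

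The proteasome, which degrades ubiquitin-marked proteins, had depleted genes and no enriched ones. Of 33 subunits 9 were depleted and 0 enriched, in 22 every pull-down lay below every input, and the median was -1.17 with -1.19, -1.33 and -1.38 in the pull-downs. Psma7, of the core ring, had 23.1, 45.8 and 38.0 normalized counts in the pull-downs and 273, 130.2 and 147 in the inputs, a change of -2.36 (SE 0.43, FDR 0.0371). Psmd6, of the regulatory lid, had 12.6, 21.4 and 26.4 normalized counts in the pull-downs and 131, 74.4 and 77.8 in the inputs, a change of -2.22 (SE 0.47, FDR 0.0512). The core subunits Psmb2 and Psma2 changed by -2.33 (SE 0.53, FDR 0.0588) and -2.53 (SE 0.58, FDR 0.0609). After removal of the length trend the median was -0.37.

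Chaperones, which fold proteins, had 7 depleted and 1 enriched gene of 58 and a median of -0.70, with -0.98, -0.71 and -0.71 in the pull-downs and -0.38 once the length trend was removed. Hsp90aa1, the stress-inducible cytosolic HSP90, had 363, 279 and 279.7 normalized counts in the pull-downs and 819, 759 and 843 in the inputs, a change of -1.39 (SE 0.24, FDR 0.034). Hspa8, the constitutive HSC70, had 195, 240.0 and 202 normalized counts in the pull-downs and 480.4, 491 and 514 in the inputs, a change of -1.22 (SE 0.24, FDR 0.042), and the chaperonin subunit Tcp1 changed by -1.12 (SE 0.26, FDR 0.0626). Dnajc13, a long J-domain protein of endosomes, was the enriched member with 1.14 (SE 0.32, FDR 0.0899). Upper-quartile scaling and library size alone called 0 chaperones enriched, with 8 and 19 depleted. Proteins of endoplasmic reticulum folding and translocation had 5 depleted and 0 enriched genes of 21, 17 with every pull-down below every input, and a median of -1.07, with -1.55, -1.18 and -1.06 in the pull-downs and -0.54 once the length trend was removed. Hspa5, the main chaperone of that compartment, had 261, 190.4 and 133 normalized counts in the pull-downs and 417, 531 and 548 in the inputs, a change of -1.35 (SE 0.30, FDR 0.0573). The disulfide isomerases Pdia3 and P4hb changed by -1.17 (SE 0.29, FDR 0.0696) and -1.73 (SE 0.44, FDR 0.0717), and the lectin chaperone Canx by -1.001 (SE 0.26, FDR 0.0792).

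Lysosomal enzymes and the vacuolar proton pump had 5 depleted and 0 enriched genes of 40 and a median of -0.68, with -0.45, -0.76 and -0.59 in the pull-downs and -0.20 once the length trend was removed. Ctsl, a cysteine protease, had 312, 493 and 431 normalized counts in the pull-downs and 1402, 1062 and 1269.5 in the inputs, a change of -1.59 (SE 0.26, FDR 0.0317), and other genes cover 28.2% of its exon bases. The annotated transcript chosen for Ctsl is long for a depleted gene (6168 bases). With the length trend removed, the gene's log2 fold change was larger, at -2.15. Subunits of the pump that acidifies the lysosome fell as well, with Atp6v0b at -2.36 (SE 0.54, FDR 0.0609), Atp6v1d at -1.13 (SE 0.29, FDR 0.0728) and Atp6v0d1 at -1.21 (SE 0.31, FDR 0.0755). Rab GTPases, which direct membrane traffic, stayed near all genes with 1 depleted and 0 enriched of 41 and a median of -0.20, which ranged from -0.39 to -0.045 with a library left out and turned to 0.11 with the length trend removed. Upper-quartile scaling gave a median of -0.35 with 1 depleted, and library size alone -0.61 with 2. Over all genes the medians were then -0.12 and -0.36. The pull-downs gave -0.84, -0.17 and 0.028. Rab1b, of traffic from the endoplasmic reticulum to the Golgi, had 2.11, 11.1 and 8.65 normalized counts in the pull-downs and 47.4, 48.4 and 42.1 in the inputs, a change of -2.66 (SE 0.69, FDR 0.0775). Rab6b and Rab6a had log2 fold changes of 0.55 (FDR 0.202) and -0.43 (FDR 0.311).

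Annexins and S100 proteins, small calcium-binding proteins of the membrane and cytosol, had 5 depleted and 0 enriched genes of 11 and a median of -1.21 (-1.57, -1.38 and -1.44 in the pull-downs), which was -0.34 with the length trend removed. Anxa5 (chr3:36448923-36475887) had 261, 297 and 260.4 normalized counts in the pull-downs and 836, 695 and 799 in the inputs. Anxa2 had 71.9, 130.0 and 132 normalized counts in the pull-downs and 434, 359.9 and 392 in the inputs. Both sets of pull-downs lay far below the inputs, with log2 fold changes of -1.51 (SE 0.23, FDR 0.026) and -1.83 (SE 0.31, FDR 0.034). Of the S100 proteins, S100a10, the binding partner of Anxa2, changed by -1.91 (SE 0.37, FDR 0.042) and S100a6 by -2.22 (SE 0.52, FDR 0.0614). Without input 2, 3 members of the list were called.

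Actin and the small proteins that turn actin filaments over had 3 depleted and 0 enriched genes of 23, and all 23 values were negative around a median of -0.94, with -1.08, -0.83 and -0.84 in the pull-downs. Tmsb4x, which holds actin monomers, had 113, 126 and 89.9 normalized counts in the pull-downs and 968, 350.4 and 348 in the inputs, a change of -2.34 (SE 0.43, FDR 0.0371). Tmsb10, of the same family, changed by -1.63 (SE 0.44, FDR 0.0855), and the severing protein Cfl1 by -1.44 (SE 0.34, FDR 0.0634). Once the length trend was removed the median was -0.18. Growth-associated proteins and stathmins, which mark regrowing axons, had 3 depleted and 0 enriched genes of 12 and a median of -0.77, with -1.62, -0.66 and -0.44 in the pull-downs and -0.47 without pull-down 1. With the length trend removed the median was -0.33. Sprr1a, which injured sensory neurons induce, had 109, 279 and 253 normalized counts in the pull-downs and 583, 517 and 632 in the inputs, a change of -1.43 (SE 0.35, FDR 0.0696). The microtubule destabilisers Stmn1 and Stmn2 changed by -2.01 (SE 0.50, FDR 0.0697) and -1.21 (SE 0.30, FDR 0.0698).

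The depleted genes with the smallest p outside the lists were 4. Prkar1a, the regulatory subunit of protein kinase A, had 325, 335 and 293 normalized counts in the pull-downs and 934, 757 and 964 in the inputs. The spread within each group was small, and the log2 fold change was -1.48 (SE 0.23, FDR 0.0277). Clta, the clathrin light chain, had 51.5, 39.8 and 37.0 normalized counts in the pull-downs and 261, 147 and 168 in the inputs, a change of -2.17 (SE 0.36, FDR 0.0335). Sdcbp, an adaptor of syndecans and exosomes, changed by -1.45 (SE 0.25, FDR 0.034) and Myl12b, a myosin light chain, by -1.73 (SE 0.31, FDR 0.0371). Prkar1a has a transcript of middle length (3513 bases), and its log2 fold change was -1.35 with the length trend removed.

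Among cell-type genes, the 1 called marker of proprioceptors was Ntrk3. Of 7 markers, 6 were tested, 1 was enriched and 0 depleted, and the median of 1.39 came from 1.84, 0.39 and 0.15 in the 3 pull-downs. Ntrk3, the receptor of neurotrophin-3 on which proprioceptors depend, had 341, 261 and 258 normalized counts in the pull-downs and 49.9, 72.8 and 66.0 in the inputs. The groups were well apart, with a log2 fold change of 2.19 (SE 0.30, FDR 0.025), which was not called without input 1 or without input 3. Etv1, a transcription factor of proprioceptors, had 86.9, 49.95 and 54.9 normalized counts in the pull-downs and 59.2, 58.5 and 44.1 in the inputs, and Spp1, osteopontin, had 53.4, 32.2 and 60.5 normalized counts in the pull-downs and 124, 98.7 and 60.2 in the inputs. Both overlapped between the groups, at 0.24 (FDR 0.754) and -0.95 (FDR 0.22), and other genes cover 18.8% of the exon bases of Spp1. Whrn and Cdh13 had log2 fold changes of 1.67 (FDR 0.238) and 1.23 (FDR 0.51), and Whrn was led by pull-down 1 with 23.0, 6.21 and 4.04 in the pull-downs. Without pull-down 1 the median of the list was 0.66, and with the length trend removed it was 1.47.

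Markers of other sensory neurons, such as nociceptors, had a median around 0 after TMM scaling. Of 24 markers 21 were tested, 0 were enriched and 2 depleted, and the median of -0.020 changed its sign under DESeq2, without Rn45s and Map1b, and in 4 of the 6 fits without a library. It was -0.21 with upper-quartile scaling (3 depleted), -0.45 with library size alone (5 depleted) and -0.039 with the length trend removed. The pull-downs gave -0.63, 0.028 and -0.042. Calca and Calcb, which encode the CGRP peptides of peptidergic nociceptors, were the depleted members. Calca had 151, 389 and 306 normalized counts in the pull-downs and 1503, 749 and 781 in the inputs, a change of -1.84 (SE 0.41, FDR 0.0549), and Calcb 46.9, 38.7 and 38.8 normalized counts in the pull-downs and 153, 94.4 and 115 in the inputs, a change of -1.54 (SE 0.37, FDR 0.064). Trpv1, Sst and Nppb are not in the table. Pan-neuronal genes had 3 depleted and 0 enriched of 19 and a median of -0.18, which was -0.056 without input 3 and whose sign changed without pull-down 1 or 2 and, to 0.16, with the length trend removed. Upper-quartile scaling lowered the median to -0.42 with 4 depleted, and library size alone to -0.65 with 6. The pull-downs gave -0.027, -0.19 and -0.10. Uchl1, the ubiquitin hydrolase PGP9.5, had 119, 178 and 132 normalized counts in the pull-downs and 717, 371 and 459.8 in the inputs, a change of -1.85 (SE 0.32, FDR 0.0342), and other genes cover 20.7% of its exon bases. Stmn2 and Tubb3, given above, were the others.

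Markers of macrophages and of cell division were nearly all missing from the table, and those of glia in part. Of 21 Schwann cell and satellite glia markers 12 are in the table and 11 were tested. After TMM scaling 0 were called by edgeR's quasi-likelihood test in the fit of all 6 libraries, where 2 were lower at an unadjusted p below 0.05. DESeq2 called 0, and 1 was depleted without pull-down 1. Markers such as Mag, Prx, Erbb3, Cdh19, Fabp7, Gfap, Kcnj10 and Ncmap are not in the table, which is restricted to genes counted 5 times or more in each of its libraries. Summed over the 11, the level was 2556, 2505 and 3067 normalized counts in the pull-downs and 4435, 3515 and 3389 in the inputs, and the median was -0.32, or -0.20 without input 1 and -0.083 without input 2. It was -0.49 with upper-quartile scaling (1 depleted) and -0.74 with library size alone (2 depleted), and turned to 0.11 with the length trend removed. The pull-downs gave -0.56, 0.0091 and -1.05. Pmp22, a myelin protein that neurons hold too, had 1311, 1406 and 2094 normalized counts in the pull-downs and 3139.8, 2121 and 2106 in the inputs, at -0.61 (FDR 0.209), and Scn7a was at 0.070 (FDR 0.905). Of 16 macrophage markers 2 are in the table, Csf1r and Cd68, at 0.33 (FDR 0.869) and 0.076 (FDR 0.97), and of 10 genes of cell division 1, Pcna, at -1.96 (FDR 0.14). Csf1r and Cd68 overlapped between the groups and took either sign depending on the scaling.

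Endothelial markers had their highest summed level in pull-down 1, while connective tissue genes differed among themselves. Of 12 endothelial markers 9 were tested, 3 were enriched and 0 depleted, all 9 had positive values, and the median was 1.49, or 2.04 with the length trend removed. The pull-downs gave 2.90, 0.59 and 1.04, and the summed level was 1251, 176 and 296 normalized counts in them against 158, 135 and 160.4 in the inputs. Vwf, the clotting factor of endothelium, had 323, 35.6 and 81.1 normalized counts in the pull-downs and 25.4, 9.80 and 15.7 in the inputs, a change of 3.11 (SE 0.79, FDR 0.072). The receptors Tek and Flt1 changed by 3.98 (SE 1.09, FDR 0.0855) and 2.83 (SE 0.81, FDR 0.0951), again highest in pull-down 1. Without pull-down 1 the median of this list was 0.36, and with library size alone 0.95. Cldn5, Esam and Tie1 are not in the table. Of 11 fibroblast markers 7 were tested and 1 was enriched, Fn1, with 188, 79.4 and 21.6 normalized counts in the pull-downs and 6.28, 22.4 and 6.04 in the inputs and a change of 3.05 (SE 0.85, FDR 0.0883). Sparc, the other member named, had 1051, 193 and 262 normalized counts in the pull-downs and 434, 347 and 256 in the inputs, a change of 0.54 (FDR 0.591). The list's median of 0.54 turned to -0.093 without pull-down 1 and lay between 0.33 and 0.95 with each other library left out. It was 0.084 with library size alone, where no member was called. It was 0.30 with the length trend removed, and the pull-downs gave 1.55, -0.28 and -0.15. Collagens, laminins and integrins had 2 enriched and 1 depleted gene of 25, beside 4.72% and 2.19% of all genes tested. Their median was 1.11, with 1.68, 0.21 and 0.47 in the pull-downs. Col12a1 had 126, 379.7 and 239.6 normalized counts in the pull-downs and 10.3, 45.7 and 34.7 in the inputs, lowest of the pull-downs in pull-down 1, a change of 3.04 (SE 0.60, FDR 0.0433). Col5a3 changed by 4.45 (SE 1.15, FDR 0.0757), and the integrin Itgb1, a receptor of laminin, by -1.15 (SE 0.30, FDR 0.0757). Without pull-down 1 the list's median was 0.25, with library size alone 0.65 and with the length trend removed 0.61. Whether the vessel and fibroblast genes of pull-down 1 bear on its other genes was not tested.

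The 5 genes with the widest spread among the pull-downs, of those with a mean of at least 50 normalized counts, were chosen for that spread and are given as a description. Cep162, a protein of the centriole, had 8948, 88.5 and 28.4 normalized counts in the pull-downs and 45.5, 56.2 and 29.0 in the inputs. Thbs1, the matrix protein thrombospondin, had 6755, 26.0 and 33.6 normalized counts in the pull-downs and 19.3, 45.5 and 32.3 in the inputs. In both, pull-downs 2 and 3 were at the level of the inputs while pull-down 1 was more than 50-fold above them, and neither was called, at 6.12 (FDR 0.132) and 6.13 (FDR 0.14). Lef1, a transcription factor of Wnt signalling of whose exon bases other genes cover 34.5%, had 285, 18.2 and 1.38 in the pull-downs and was at 4.91 (FDR 0.101). 1810030O07Rik had 240.3, 8.89 and 0.692, and its log2 fold change of 1.61 (FDR 0.501) turned to -2.47 without pull-down 1. Fam210b, a mitochondrial protein, had 0.666, 21.8 and 156, so that pull-down 3 was high and pull-down 1 lowest there.

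Set beside the libraries labelled Cre-, which share no library with these, the classes fell into several patterns. The test was that of the difference between both enrichments in a fit of all 12 libraries over 8830 genes, in which 228 genes (2.58%) had the higher enrichment with the Cre+ label and 185 (2.10%) with the Cre- label. Lists of energy metabolism had the lower medians with the Cre+ label. The list of oxidative phosphorylation had medians of 0.012 with the Cre- label and -1.70 with the Cre+ label, and 12 of 68 genes passed the test of the difference, all lower in Cre+. Glycolysis had 0.45 against -1.10, with 7 of 16 genes lower in Cre+ and 0 higher, and the tricarboxylic acid cycle 0.45 against -0.76, with 4 of 15. The log2 fold changes of Pkm were 1.13 (Cre-) and -1.13 (Cre+), a difference of -2.22 (SE 0.26, FDR 0.00122). For Aldoa, Tpi1 and Ldhb the differences were -1.61 (SE 0.25, FDR 0.00873), -2.499 (SE 0.39, FDR 0.00986) and -3.30 (SE 0.54, FDR 0.0119). All 4 enzymes were above their inputs with the Cre- label and below them with the Cre+ label.

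Cytosolic ribosomal proteins were low in both genotypes, with medians of -1.49 and -1.06 and 0 of 51 genes past the test of the difference by edgeR's quasi-likelihood test, where 1 had an unadjusted p below 0.05. The proteasome had medians of -1.17 and -0.12, with 3 of 33 genes lower in Cre+, among them Psma7 with a difference of -2.03 (SE 0.45, FDR 0.044). Of the annexins and S100 proteins 4 of 11 were lower in Cre+, for example Anxa2 with -1.52 (SE 0.34, FDR 0.049). Of 58 chaperones 3 were lower in Cre+, among them Hsp90aa1 with -1.44 (SE 0.25, FDR 0.0155). Of the other genes named above, Prkar1a differed by -1.30 (SE 0.24, FDR 0.021) and Uchl1 by -1.95 (SE 0.36, FDR 0.0196).

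In the other direction, 11 of 85 chromatin regulators had the higher enrichment in Cre+ and 0 in Cre-, with medians of 1.04 and 0.36. Kmt2a differed by 1.54 (SE 0.34, FDR 0.048). Of the AF4 and zinc-finger homeobox genes 5 of 11 were higher in Cre+, including Aff1 with 1.56 (SE 0.37, FDR 0.0595) and Zfhx3 with 1.08 (SE 0.24, FDR 0.0483), and of the ankyrins and spectrins 3 of 7, including Ank2 with 1.76 (SE 0.41, FDR 0.0552). Potassium channels had 5 genes higher in Cre+ and 1 in Cre-, and injury-response transcription factors had 4 higher in Cre+ and 0 in Cre-, with Klf7 at 1.30 (SE 0.26, FDR 0.0338). For sodium and calcium channels the count was 2 of 25, with Scn9a at 1.59 (SE 0.33, FDR 0.0358). The giant ubiquitin ligases and the microtubule-associated proteins were high in both genotypes, with medians of 1.51 and 0.90 for the first and 0.46 and 0.74 for the second, and 0 genes of either passed edgeR's quasi-likelihood test of the difference. At an unadjusted p below 0.05, 4 ubiquitin ligases had the higher enrichment in Cre+, and of the microtubule-associated proteins 6 had it in Cre+ and 2 in Cre-.

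Proprioceptor markers were lower in the pull-down labelled Cre+ than in that labelled Cre- where the difference passed. The medians were 1.39 and 2.68 over the 6 genes tested in both, and 2 genes passed, Spp1 with a difference of -3.59 (SE 0.47, FDR 0.00253) and Etv1 with -2.40 (SE 0.42, FDR 0.0155). Ntrk3 was enriched in both, with 2.19 and 2.05 and a difference of 0.17 (SE 0.32, FDR 0.806). For Runx3 the difference of -1.92 (SE 0.99, FDR 0.304) did not pass the cutoff. Other sensory neuron markers had medians of -0.020 and -1.01, with 1 gene higher in Cre+ and 1 in Cre-.

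**Figure D5:**
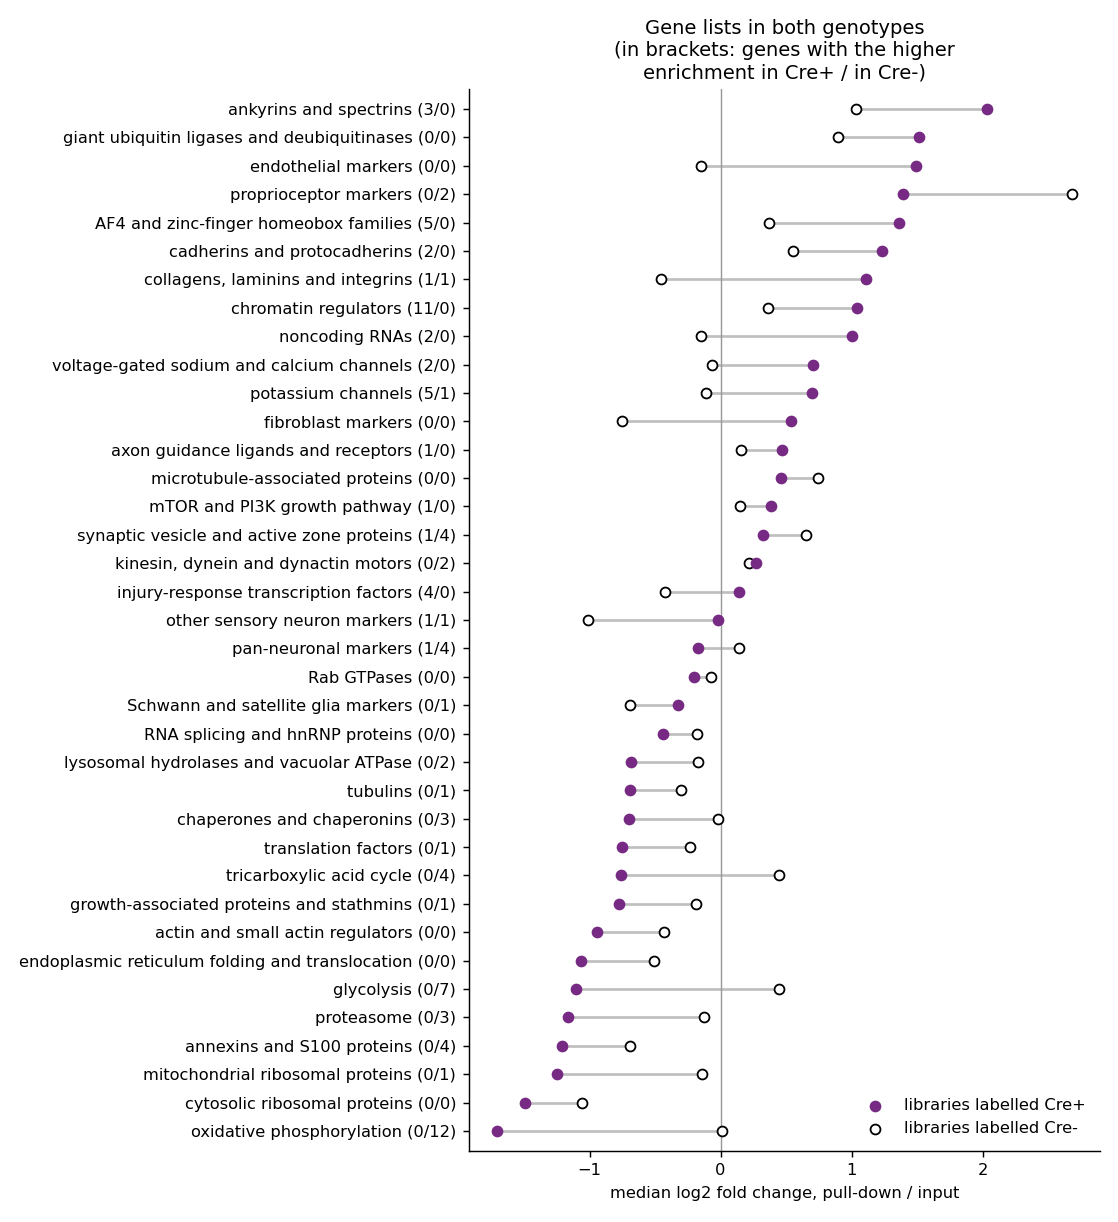
Median log2 fold change of pull-down over input for 37 gene lists in the libraries labelled Cre+ (filled) and Cre- (open). The numbers beside each list give the genes with the higher enrichment in Cre+ and in Cre- by the test of the difference. The genotypes lie apart for oxidative phosphorylation, with 12 genes past the test, and glycolysis, with 7. They lie apart for endothelial markers, with 0, and collagens, with 1 in each direction, by values that rest on pull-down 1, without which the Cre+ medians are 0.36 and 0.25.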

How the data were processed

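Cultured DRG neurons were measured by RNA-seq in 12 libraries, 3 per genotype and fraction. The authors called bases with CASAVA 1.8.2 per the submitters' processing notes, and by the study's methods mapped reads to mm10 with STAR and counted unique reads per RefSeq gene with HTSeq. The labels name the Nugen Ovation Ultra Low Input and Kapa Hyper kits, the methods Ribo-Zero Gold and Ovation RNA-seq V2. Both start from small amounts of RNA and amplify it, and strand was not stated to be used, so overlapping genes can share counts. The deposited count columns, raw reads per gene, were tested. The deposited FPKM (values per kilobase and 1000000 fragments, averaged by the authors) served as a filter above 1 only. Deposited log2 fold changes and p-values are the authors' comparisons and were not used, nor were 18 further columns of per-sample values. The Cre+ table lists genes with at least 5 counts in all 6 libraries, so that a gene lost from a single library is not analysed here.

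Counts were fitted with edgeR 4.0.16 in R 4.3.3 (TMM scaling, quasi-likelihood test in legacy mode with a robust spread estimate, 3 pull-downs against 3 inputs, 2-sided), with Benjamini-Hochberg adjustment over all 8947 genes, an FDR below 0.1 and at least a 2-fold change. A standard error is the log2 fold change divided by the square root of F. The Cre- libraries were fitted alike, and the difference of both enrichments in a fit of 12 libraries. The main test was also run on simulated counts with planted changes. These held no length trend and no outlying library, so that run cannot tell how either bears on the calls. Length trends were removed per library by loess (span 0.3) on log2 transcript length, and GC content and coding length were read in 5 bins, transcript length in 10. DESeq2 1.42.0, other scalings and filters, and leaving out each library were tried. Nothing says that the 3 samples of a group came from separate cultures, although each pooled 5 mice, so p-values measure only the spread between these samples.

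The members and gene lists were chosen with earlier results of these data known. Named genes are the 10 with the smallest p per direction among called genes whose groups do not overlap, up to 4 called members per list and direction by smallest p (in lists with fewer than 2 called, the 2 with the highest level), the proprioceptor markers, Rpl22 and Runx3, and the 5 with the largest spread of pull-downs at a mean of at least 50 normalized counts. A few genes that this rule names are not reported here. Coordinates are RefSeq's for GRCm38.p6, whereas transcript and coding lengths, GC content and exon overlaps were read from the GENCODE basic annotation.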

Additional observations from a re-analysis of the deposited data

Results flagged for a closer look

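The log2 enrichment of 40 named genes differed between the libraries labelled Cre+ and Cre- by the test of the difference itself (edgeR's quasi-likelihood test, FDR below 0.1 and at least 2-fold). Values below are the log2 enrichment in Cre+ minus that in Cre-, by the labels as deposited, which Spp1 and Etv1 go against, and both are set side by side in the report for the lists they belong to.

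Of these, 22 had the lower enrichment in Cre+. Enzymes of energy metabolism were Pkm at -2.22, Aldoa at -1.61, Tpi1 at -2.50, Ldhb at -3.30, Atp5d at -1.77, Atp5b at -1.47, Cox7b at -2.76 and Ndufa4 at -2.12. Genes of protein turnover, folding and mitochondrial translation were Hsp90aa1 at -1.44, Uchl1 at -1.95, Psma7 at -2.03, Psmd6 at -2.16, Atp6v1d at -1.09 and Mrpl27 at -2.45. Genes of membranes, signalling and the cytoskeleton were Prkar1a at -1.30, Anxa2 at -1.52, Sdcbp at -1.17, Clta at -1.50, Stmn2 at -1.26 and Itgb1 at -1.22. The proprioceptor markers were Spp1 at -3.59 and Etv1 at -2.40. Their FDR ranged from 0.00122 (Pkm) to 0.0998 (Ndufa4).

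The other 18 had the higher enrichment in Cre+. Chromatin regulators and transcription factors were Ankrd11 at 1.46, Klf7 at 1.30, Kmt2a at 1.54, Zfhx3 at 1.08, Aff1 at 1.56, Hivep1 at 1.21, Tet2 at 2.34, Zfhx4 at 1.64, Kmt2c at 1.32 and Lef1 at 6.27. Channels, synaptic and signalling genes were Scn9a at 1.59, Igf1r at 1.48, Cplx2 at 2.39 and Ccdc88a at 1.96. Genes of the membrane skeleton and adhesion were Ank2 at 1.76, Sptbn1 at 1.59 and Fat4 at 2.32, and the noncoding RNA was Meg3 at 2.77. Their FDR ranged from 0.0338 (Ankrd11) to 0.0985 (Sptbn1 and Fat4), with Lef1 at 0.098. Pull-down 1 was the highest pull-down for Ankrd11, Igf1r, Zfhx3, Tet2, Fat4, Meg3 and Lef1, by more than 2-fold for the last 3, and Lef1 was not called within the libraries labelled Cre+. No group holds the 4 samples that a search for outlying samples needs.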

How the results depend on the processing

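The main counts were 422 enriched and 196 depleted genes. DESeq2 gave 1103 and 568, edgeR's exact test 794 and 485, a single fit of all 12 libraries 1252 and 950, the quasi-likelihood test without its legacy mode 613 and 373 (chosen after seeing the data, as were the fits below without Rn45s and Map1b), upper-quartile scaling 249 and 266, library size alone 192 and 699, and an FDR below 0.05 139 and 26. With the length trend removed the counts were 0 and 0, and with DESeq2 on that fit, added later, 513 and 163. Leaving out each library in turn gave 4 to 803 enriched and 0 to 540 depleted genes, lowest without input 3 or input 1. Filters on low counts, the robust estimate and the fold limit kept both counts within 1.5 times. All libraries hold at least 8886308 counts on listed genes, and no fit at a lower depth was made, so what depth limits was not tested.

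Of 148 named genes, 115 to 148 kept direction and side of the threshold under the other filters, scalings and tests. With library size alone 20 were no longer called. With the length trend removed 0 genes were called. There 118 named genes lost their call and kept their direction, while Bsn and Fat3 lost their call and changed direction. The direction changed, on the log2 scale, with the length trend removed for Bsn (-0.094), Etv1 (-0.42), Fat3 (-0.45), Hnrnpul2 (-0.067), Mrpl4 (0.89), Pmp22 (0.095), Scn7a (-0.67) and Sox11 (-0.41). With library size alone it changed for Cd68 (-0.45), Csf1r (-0.18), Etv1 (-0.22), Fam210b (-0.21), Hnrnpul2 (-0.26), Ogdh (-0.040), Scn7a (-0.38) and Sox11 (-0.063), and with upper-quartile scaling for Cd68 (-0.23), Hnrnpul2 (-0.020) and Scn7a (-0.14). Hnrnpu was 0.048 with DESeq2 and 0.0063 without Rn45s and Map1b. With each library left out in turn, 1810030O07Rik ranged from -2.47 to 2.20, Cd68 from -2.05 to 0.76, Csf1r from -0.90 to 0.87, Etv1 from -0.0046 to 0.41, Fam210b from -2.16 to 0.82, Hnrnpu from -0.099 to 0.17, Mrpl4 from -0.53 to 0.34, Scn7a from -0.080 to 0.30, Sparc from -0.57 to 0.94 and Thbs1 from -0.082 to 6.72. None of these genes but Bsn and Fat3 was called. The cause of these changes was not tested. By the methods each input was kept back from the lysate of a pull-down, but the sources do not state that equal numbers mark the same lysate. Deviations from the group means correlated between same-numbered pull-downs and inputs at -0.0103, -0.00297 and 0.0105 across genes, and between others at -0.0243 to 0.0219, and only pull-down 3 correlated best with its own number. With the number of the column as a replicate block, chosen after seeing the data, 212 genes were enriched and 49 depleted, 43 named genes were no longer called, and the direction changed for 1810030O07Rik (-1.30), Cd68 (-0.82), Csf1r (-0.26) and Fam210b (-1.45). The block lowered the median of the potassium channels from 0.70 to 0.295 and that of the collagens, laminins and integrins from 1.11 to 0.73.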
